A study of Mus musculus with 6 samples.

Results

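The Bcl2 family genes examined here are 10 members of the gene family that sets the threshold of mitochondrial apoptosis, chosen by name from 19977 genes in the deposited table. The 4 pro-survival members were Bcl2, Bcl2l1, Mcl1 and Bcl2a1b, and the 6 pro-death members were Bcl2l11, Bbc3, Pmaip1, Bid, Bax and Bak1. All 10 were in the table and all 10 had a mean of at least 1 FPKM over the libraries (fragments per kilobase of transcript, scaled to library size, a level that can be compared between genes), the minimum used for testing. RNA came from CD4+ T cells of old mice (11 months, 3 libraries) and of young mice (6 to 8 weeks, 3 libraries). All mice were wild-type C57BL/6, and in both groups the cells were taken from spleen and lymph nodes, purified by flow cytometry, and stimulated for 6 hours through the T-cell receptor and its costimulator with CD3 and CD28 antibodies. The labels do not say whether a library came from 1 animal or from several, so the p-values cover only library-to-library spread, possibly technical, and no unstimulated libraries were analysed here.

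Members of this family meet at the outer mitochondrial membrane. The pro-survival proteins hold back the effectors Bax and Bak1, which otherwise form pores that release cytochrome c, and the BH3-only proteins Bcl2l11 (Bim), Bbc3 (Puma), Pmaip1 (Noxa) and Bid either occupy the pro-survival proteins or activate the effectors directly. In T cells Bim is known for its part in the deletion of self-reactive thymocytes and in the loss of activated cells when an immune response ends.

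The short stretch by which these proteins recognise each other, the BH3 core, is the feature the pro-death members share with most of their inhibitors, and its coding sequences are shown for that reason. Capitals mark the codons of the core as searched, which are leucine, any 3 residues, glycine or alanine, and aspartate, with 3 codons on either side in lower case. They were read from GENCODE transcripts on GRCm38 and are written 5′ to 3′ along the mRNA.
Bcl2l11, chr2:128147141-128147176, plus strand: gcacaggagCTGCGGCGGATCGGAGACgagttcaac
Bbc3, chr7:16313764-16313799, plus strand: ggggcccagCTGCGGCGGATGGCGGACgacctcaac
Bid, chr6:120897289-120897324, minus strand: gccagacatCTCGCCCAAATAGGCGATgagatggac
Bax, chr7:45465997-45466032, minus strand: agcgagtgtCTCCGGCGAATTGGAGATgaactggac
Bak1, chr17:27022531-27022566, minus strand: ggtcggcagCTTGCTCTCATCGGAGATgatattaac
Bcl2, chr1:106712575-106712610, minus strand: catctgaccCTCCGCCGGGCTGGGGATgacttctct
Bcl2l1, chr2:152829697-152829732, minus strand: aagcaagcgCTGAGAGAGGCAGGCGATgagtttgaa
Mcl1, chr3:95659427-95659462, plus strand: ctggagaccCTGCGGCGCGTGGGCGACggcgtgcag
Each of these 8 coding sequences held the pattern once, and Bbc3 was the one with an alanine codon in place of the glycine codon. The coding sequence of Bcl2a1b did not hold it, and that of Pmaip1 (NM_021451.2), which is not printed, held it 2 times.

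Depth was similar in all libraries, with 16932551 to 18708205 expected counts each. Young replicate 1 stood apart from the other young libraries, with correlations of 0.926 and 0.913 across genes (genes are not independent replicates), against 0.980 between the other two. Of the 10 members, 5 lay below and 3 lay above both other young libraries in young replicate 1, beside 41.2% and 45.7% of all genes tested. Values without that library are therefore given beside the results. Summed over 9 markers, T-cell genes stood at 3936 to 4760 CPM (counts scaled to library total) in old and 3743 to 4159 CPM in young libraries. By edgeR with all libraries none of the markers was called. DESeq2 called Ltf, Ngp and Camp of neutrophils and Eomes of the NK-cell list lower in old, with adjusted p = 0.00151, 0.0157, 0.0454 and 0.00193. Without young replicate 1 edgeR called Ltf and Eomes lower, with adjusted p = 0.0486 and 0.00191. The 10 neutrophil genes summed to 13.3 to 41.1 CPM in old and 40.6 to 105 CPM in young libraries, and 4 of them were lower in old with no overlap between the groups. The summed level of 8 B-cell markers was 13.8 to 25.4 CPM in old and 14.0 to 40.9 CPM in young libraries, and 2 CD8 genes summed to 11.3 to 14.6 CPM in old and 16.6 to 27.5 CPM in young libraries. Of these 2, Cd8b1 was lower in every old library, with means of 10.8 CPM in old and 19.3 CPM in young. Cd8a had overlapping groups, with means of 2.09 CPM in old and 1.95 CPM in young. For 6 NK-cell markers the sums were 35.5 to 42.3 CPM in old and 54.5 to 104 CPM in young libraries, most of it from Eomes. Of the others, Klrb1c was higher in every old library, at 0.432 to 0.656 CPM against 0 to 0.376 CPM in young ones. The means of Klrk1, Ncr1 and Klra8 were higher in old and that of Fcer1g lower, all with overlap. For 11 markers of monocytes, macrophages and dendritic cells the sums were 22.9 to 29.5 CPM in old and 22.1 to 35.5 CPM in young libraries. Sums for mast cell, erythroid and stromal markers were at most 3.27, 1.20 and 100.1 CPM in old and 4.28, 4.22 and 240.2 CPM in young libraries. The stromal sum was nearly all Pecam1, at 87.9 to 99.2 CPM in old and 66.9 to 239 CPM in young libraries.

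The comparison asked whether genes of survival and of death differ in transcript level with age in stimulated CD4+ cells. Transcripts of Bcl2l11 fell 2.22-fold in old libraries and were the only ones of the 10 members that passed the test across all genes. Bbc3 was also lower in each old library than in any young one, but did not pass. The other 8 members, including all 4 pro-survival ones, had overlapping groups. By edgeR's quasi-likelihood test, 92 of 10509 genes (0.875%) passed at an adjusted p of 0.05 (Benjamini-Hochberg), with 78 (0.742%) higher and 14 (0.133%) lower in old libraries, and by unadjusted p Bcl2l11 ranked 4 among those 14. Groups that did not overlap were found for 2 of 10 members, against 16.4% of all genes tested (9.9% higher and 6.54% lower in old). An unadjusted p under 0.05 was reached by 2 members, Bcl2l11 and Bbc3, both lower in old, as were 3.96% of all genes tested (10.6% in either direction). The median log2 difference of the 10 members was 0.02, beside -0.03 for all genes tested.

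**Figure D1:**
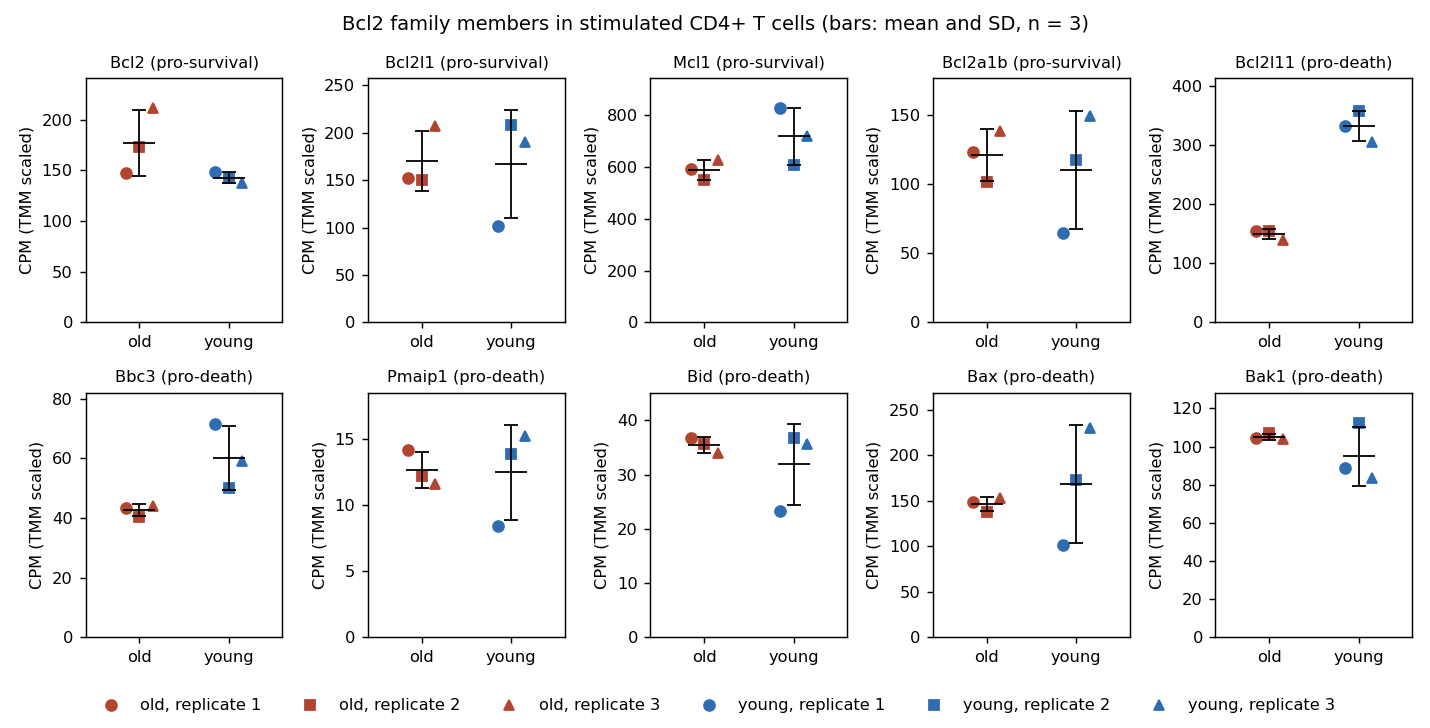
CPM, scaled by TMM-adjusted library totals, of each member in every library (vertical axes, linear and starting at 0), with old libraries on the left and young ones on the right of each panel. Bars show the mean and SD of 3 libraries. Bcl2l11 stands at 139.6 to 155 CPM in old and 307 to 358 CPM in young libraries, while the circle of young replicate 1 is the lowest young point for Bcl2l1, Bcl2a1b, Pmaip1, Bid and Bax.

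Bcl2l11 (gene 12125, chr2:128126038-128162547 in GRCm38) encodes Bim, the BH3-only protein that binds all the main pro-survival members. It stood at 155, 155 and 139.6 CPM in old libraries 1 to 3, against 334, 358 and 307 CPM in young libraries 1 to 3. Every old library lay below every young one. The means were 149.7 ± 8.83 CPM in old and 333 ± 25.6 CPM in young libraries (SD, 3 libraries a group). The log2 difference was -1.15 ± 0.15 (SE), with an adjusted p = 0.0262 by edgeR (quasi-likelihood test, Benjamini-Hochberg). DESeq2 and limma also called Bcl2l11 lower and no other member, in fits that called 4.77% of all genes (3.56% higher, 1.21% lower) and 0.942% (0.79% higher, 0.152% lower). Without young replicate 1 the log2 difference was -1.15 ± 0.12 (SE) with an adjusted p = 0.00326 by edgeR (quasi-likelihood, Benjamini-Hochberg), where 8.84% of genes were called (5.86% higher, 2.98% lower). Leaving out any other single library ended the call, with log2 differences of -1.22 to -1.10 and, by edgeR, an adjusted p = 0.12 without old replicate 1, 0.19 without old replicate 2, 0.147 without old replicate 3, 0.099 without young replicate 2 and 0.104 without young replicate 3. The gene's span overlaps that of Acoxl, an acyl-CoA oxidase-like gene, which stood at 0.164 to 0.54 CPM in old and 1.40 to 4.11 CPM in young libraries. In bulk RNA, fewer cells of a type that carries the transcript and less of it per cell cannot be told apart. The part in this difference of cells with the neutrophil markers, Cd8b1 or Eomes given above was not tested.

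Bim is made in several coding forms by alternative splicing, known from longest to shortest as BimEL, BimL and BimS, and the table lists 9 transcripts of the gene. Its NM_207680.2 codes for 196 residues, NM_207681.2 for 140 and NM_009754.3 for 110 in GENCODE's annotation of GRCm38, and all 3 are known to keep the BH3 core. Together these 3 transcripts held 91.5% to 91.7% of the gene's FPKM in old and 87.7% to 92.4% in young libraries. The segments that tell them apart are printed because the division of reads rests on them, first the 168 coding bases found in the longest form only, then the 90 bases that the longest and the middle form share and the shortest lacks.
Longest form only, chr2:128128757-128128924, plus strand: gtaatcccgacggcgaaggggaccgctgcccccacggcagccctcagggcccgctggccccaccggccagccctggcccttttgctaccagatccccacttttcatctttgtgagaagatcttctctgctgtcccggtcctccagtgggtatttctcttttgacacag
Longest and middle forms, chr2:128128925-128129014, plus strand: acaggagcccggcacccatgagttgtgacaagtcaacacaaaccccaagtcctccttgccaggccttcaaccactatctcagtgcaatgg
The longest form had 15.3, 18.6 and 11.0 FPKM in old libraries, against 37.7, 24.6 and 19.4 FPKM in young libraries. For the middle form, values were 9.32, 9.32 and 13.7 FPKM in old libraries and 24.0, 37.6 and 33.0 FPKM in young libraries. Neither form's groups overlapped, and the means were 14.97 ± 3.80 and 27.2 ± 9.40 FPKM for the longest form and 10.8 ± 2.51 and 31.5 ± 6.90 FPKM for the middle form in old and young libraries (SD, 3 libraries a group). The shortest form was low, at 4.59, 1.27 and 1.07 FPKM in old and 0.78, 5.55 and 2.10 FPKM in young libraries, and its groups overlapped. Among the remaining transcripts, NM_001291016.1 had 1.56, 1.78 and 1.68 FPKM in old and 7.05, 3.62 and 2.93 FPKM in young libraries, also with no overlap. Its mean in young libraries, 4.53 FPKM, was above the 2.81 FPKM of the shortest form. The ratio of the middle to the longest form was 0.608, 0.501 and 1.24 in old libraries and 0.637, 1.53 and 1.70 in young libraries, so that the groups overlapped and young replicate 1 lay among the old values. These are model estimates of how shared reads divide among transcripts, and they were not tested.

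**Figure D2:**
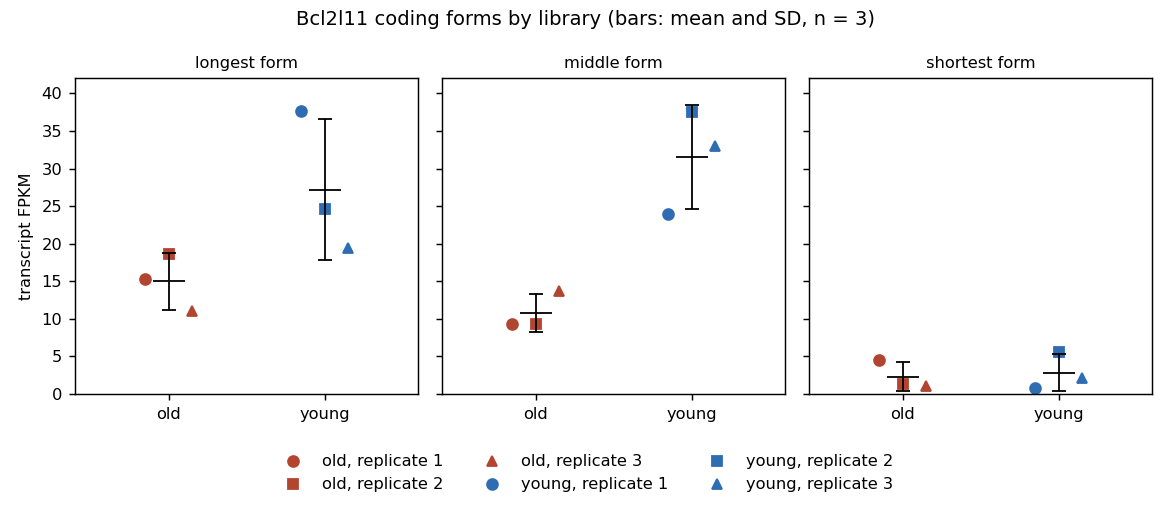
Transcript FPKM (vertical axis, linear, shared by the panels) of the coding forms of Bcl2l11 known as BimEL, BimL and BimS (longest, middle and shortest) in every library, old on the left and young on the right, with bars for the mean and SD of 3 libraries. The longest form lies at 11.0 to 18.6 FPKM in old and 19.4 to 37.7 FPKM in young libraries and the middle form at 9.32 to 13.7 and 24.0 to 37.6 FPKM, while the shortest stays under 6 FPKM in both groups.

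Of the other BH3-only members, Bbc3 (gene 170770, chr7:16308398-16318334) encodes Puma, which is induced by p53 and by growth factor loss. It had 43.4, 40.3 and 44.2 CPM in old libraries, against 71.5, 50.1 and 59.2 CPM in young libraries. The groups did not overlap, but the log2 difference of -0.50 ± 0.17 (SE, 3 libraries a group) did not pass, with an adjusted p = 0.337 by edgeR (quasi-likelihood, Benjamini-Hochberg). The gene's FPKM was divided among 9 transcripts, and the largest of these, NM_133234.2, had 10.2 ± 1.81 FPKM in old and 13.1 ± 5.35 FPKM in young libraries (SD, 3 libraries a group) with overlapping groups. Pmaip1 (gene 58801), whose product Noxa binds mainly Mcl1, had the lowest FPKM of the members, and its CPM was 14.2, 12.2 and 11.6 CPM in old and 8.39, 13.9 and 15.2 CPM in young libraries. Young replicate 1 was below every other library there, and the log2 difference was 0.02 ± 0.26 with all libraries and -0.20 ± 0.17 without it (SE). Bid, which caspase 8 cleaves to link death receptors to mitochondria, showed the same arrangement, with 36.8, 35.7 and 33.9 CPM in old and 23.3, 36.7 and 35.7 CPM in young libraries. Its log2 difference was 0.15 ± 0.21 with all libraries and -0.03 ± 0.13 without young replicate 1 (SE). Without old replicate 1 that of Pmaip1 was -0.07. Neither Pmaip1 nor Bid was called.

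The summed FPKM of the 4 BH3-only members was 81.1, 77.6 and 74.5 in old and 127, 125 and 116 in young libraries. Bcl2l11 made up 39.4% ± 1.71 of this sum in old and 55.5% ± 3.27 in young libraries (SD, 3 libraries a group). With Bcl2l11 taken out, the remaining 3 summed to 49.2, 45.7 and 46.4 FPKM in old and 56.1, 51.8 and 55.5 FPKM in young libraries. The groups stayed apart in that smaller sum too, in which Bbc3, whose own groups did not overlap, had the highest FPKM. Pmaip1 and Bid, the other members of that sum, each had overlapping groups. Their mean FPKM was 4.75 and 18.8 in old and 4.62 and 16.6 in young libraries.

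Among the pro-survival members, none was called in either direction. Bcl2 (gene 12043, chr1:106538176-106714290), the family's founding inhibitor of apoptosis and a survival factor of resting T cells, had 147, 172 and 211 CPM in old libraries, against 148, 142 and 137 CPM in young libraries. Old replicate 1 lay among the young values and the other old libraries lay above them. The log2 difference was 0.31 ± 0.17 (SE, 3 libraries a group) with an adjusted p = 0.628 by edgeR (quasi-likelihood, Benjamini-Hochberg). It was 0.16 without old replicate 3, the library with the highest value. Mcl1 (gene 17210, chr3:95656944-95663179), a short-lived inhibitor that lymphocytes need for survival, had 595, 550.0 and 627 CPM in old and 828, 610 and 719 CPM in young libraries. Only old replicate 3 reached into the young range, and the log2 difference of -0.28 ± 0.18 (SE) became -0.17 ± 0.13 without young replicate 1, with no call in either case.

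Bcl2l1, whose main product Bcl-xL is induced by CD28 costimulation, had 153, 151 and 207 CPM in old and 102, 208 and 190.3 CPM in young libraries. Its log2 difference was 0.03 ± 0.29 with all libraries and -0.23 ± 0.16 without young replicate 1 (SE, n = 3 and 2 young libraries). Bcl2a1b, a copy of the NF-kB-induced inhibitor A1, had 123, 101 and 138 CPM in old and 64.9, 117 and 149 CPM in young libraries, for a log2 difference of 0.13 ± 0.30 with all libraries and of -0.14 ± 0.17 without young replicate 1 (SE). The direction of both genes thus depended on that library, and that of Bcl2l1 also on old replicate 3, without which it was -0.14. Neither was called with or without these libraries. Bcl2a1b has near-identical copies among which reads can be divided wrongly. Summed over Bcl2a1a, Bcl2a1b, Bcl2a1c and Bcl2a1d, the level was 179 ± 28.4 CPM in old and 161 ± 59.4 CPM in young libraries (SD, 3 libraries a group), with a log2 difference of 0.16 ± 0.29 (SE) and an adjusted p = 0.929 by edgeR (quasi-likelihood, Benjamini-Hochberg).

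The effectors did not pass either. Bax had 149, 138 and 153 CPM in old and 102, 173 and 230.2 CPM in young libraries, and the old values lay between young replicate 1 and the other young libraries. The log2 difference of -0.20 ± 0.28 (SE, 3 libraries a group) became -0.46 ± 0.14 without young replicate 1, with an adjusted p = 0.0819 by edgeR (quasi-likelihood, Benjamini-Hochberg). Without young replicate 3, the highest library, it was 0.084. In DESeq2 without young replicate 1, a setting added after seeing the data, Bax had an adjusted p = 0.0261 and was called lower along with Bcl2l11, in a fit that called 17.1% of all genes (9.43% higher, 7.62% lower). Bak1 had 105, 107 and 104 CPM in old and 88.8, 113 and 83.6 CPM in young libraries, for a log2 difference of 0.15 ± 0.16 (SE, 3 libraries a group). It was 0.10 without young replicate 1, 0.28 without young replicate 2 and 0.055 without young replicate 3.

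**Figure D3:**
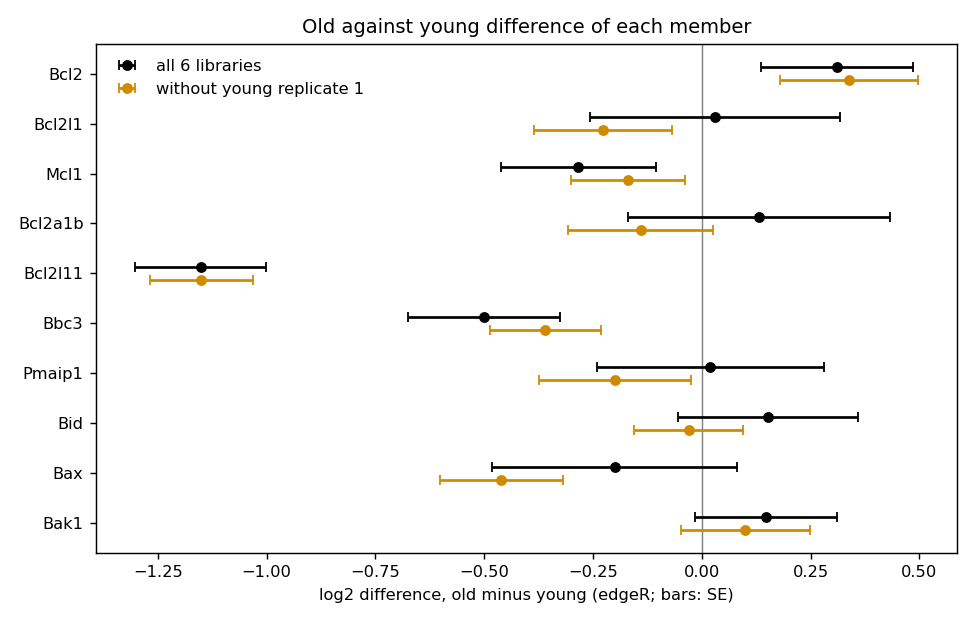
Log2 difference, old minus young, of each member from edgeR (horizontal axis, bars for the SE), with all 6 libraries in black and without young replicate 1 in orange. Bcl2l11 stays at -1.15 in both, while Bcl2l1, Bcl2a1b, Pmaip1 and Bid change sign and Bax moves to -0.46.

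Ordered by FPKM, the level per transcript length, Bax, Mcl1 and Bcl2a1b led in old libraries with means of 171 ± 7.34, 168 ± 8.55 and 163 ± 22.5 FPKM, and their ranges overlapped. Mcl1, Bax and Bcl2a1b led in young libraries with 204 ± 34.7, 194 ± 69.5 and 147 ± 52.7 FPKM (SD, 3 libraries a group), again with overlapping ranges. Below them the place of Bcl2l11 differed. In old libraries it ranked 6 at 30.6 ± 2.22 FPKM, below Bcl2l1 at 68.4 ± 12.6 and Bak1 at 52.6 ± 1.66 FPKM, and its range overlapped that of Bcl2 at 25.3 ± 4.19 FPKM. In young libraries it ranked 4 at 68.2 ± 6.96 FPKM, and its range overlapped that of Bcl2l1 at 65.7 ± 24.3 FPKM but not that of Bcl2, which was at 21.2 ± 1.40 FPKM in place 8. Bid and Pmaip1 came last in both groups, at 18.8 ± 1.08 and 4.75 ± 0.57 FPKM in old and 16.6 ± 3.54 and 4.62 ± 1.22 FPKM in young libraries.

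Within a library, the ratio of Bcl2 to Bcl2l11 FPKM was 0.667, 0.781 and 1.06 in old libraries and 0.320, 0.275 and 0.344 in young libraries. Ratios of Mcl1 to Bcl2l11 were 5.34, 4.96 and 6.22 in old and 3.39, 2.36 and 3.27 in young libraries. For Bcl2l1 they were 1.92, 1.91 and 2.95 in old and 0.540, 1.16 and 1.22 in young libraries, and for Bcl2a1b 5.25, 4.34 and 6.50 in old and 1.26, 2.15 and 3.20 in young libraries. All 4 ratios were higher in each old library than in any young one. They share Bcl2l11 as the denominator, so they are not separate results.

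**Figure D4:**
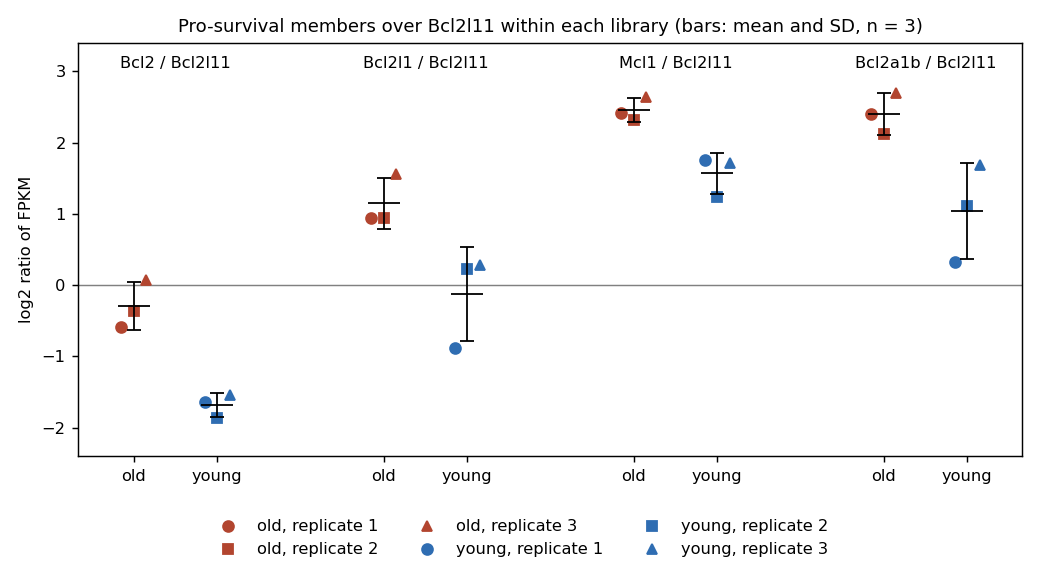
Log2 ratio of the FPKM of each pro-survival member to that of Bcl2l11 within each library (vertical axis; 0 means equal FPKM), old on the left and young on the right of each pair, with bars for the mean and SD of 3 libraries. Each pair of groups is apart, with mean log2 ratios for Bcl2 of -0.29 in old and -1.68 in young libraries.

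Over whole classes the separation was lost in the summed FPKM, but not when each member, Bcl2l11 included, counted equally. The 4 pro-survival members summed to 421, 382 and 470 FPKM in old and 392, 436 and 484 FPKM in young libraries, and the 6 pro-death members to 310.0, 294 and 300.4 FPKM in old and 294, 383 and 415 FPKM in young libraries. The ratio of the sums was 1.36, 1.30 and 1.56 in old and 1.34, 1.14 and 1.17 in young libraries, so the groups overlapped at old replicate 2 and young replicate 1. On the log2 scale the mean ratio was 0.49 ± 0.14 in old and 0.28 ± 0.12 in young libraries (SD, 3 libraries a group). Bax and Mcl1, the members of highest FPKM in each class, weigh most in these sums. When each member counted equally, as the mean of log2(FPKM + 1) in its class, the difference between the classes was 1.32, 1.35 and 1.69 in old and 1.10, 1.15 and 1.26 in young libraries, which did not overlap. Bcl2l11 is part of the pro-death mean, and no value of this measure without it is given. It is therefore not a result separate from that of Bcl2l11, nor one of the class as a whole. With Bcl2l11 left out of the pro-death sum, the log2 ratio of the sums was 0.64 ± 0.13 in old and 0.59 ± 0.20 in young libraries (SD, 3 libraries a group).

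Promoter windows of 300 bases (250 before and 50 after a transcript start, RefSeq, GRCm38.p6) were found for 9 of the 10 members, in 14 windows, all but Pmaip1. They were searched on both strands for 6 motifs, chosen with the members' values known. The core recognised by FOXO factors, GTAAACA, was present in windows of 2 members, Bcl2l11 and Bbc3, and in 3.65% of all 32851 promoter windows. Percentages here are shares of windows, while a member is counted if any of its windows held the motif, so the 2 measures are not directly comparable. The windows of these members that hold it are printed with the motif in capitals (on the reverse strand in Bbc3, where it reads TGTTTAC). The Bcl2l11 window is that of the start used by the 3 coding forms described above.
Bcl2l11, chr2:128125788-128126087, plus strand: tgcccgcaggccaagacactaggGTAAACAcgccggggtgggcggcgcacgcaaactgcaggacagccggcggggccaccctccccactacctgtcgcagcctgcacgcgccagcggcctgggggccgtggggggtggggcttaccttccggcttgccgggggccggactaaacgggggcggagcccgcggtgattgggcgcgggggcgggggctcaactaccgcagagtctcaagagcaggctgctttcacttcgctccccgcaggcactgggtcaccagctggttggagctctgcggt
Bbc3, chr7:16310011-16310310, plus strand: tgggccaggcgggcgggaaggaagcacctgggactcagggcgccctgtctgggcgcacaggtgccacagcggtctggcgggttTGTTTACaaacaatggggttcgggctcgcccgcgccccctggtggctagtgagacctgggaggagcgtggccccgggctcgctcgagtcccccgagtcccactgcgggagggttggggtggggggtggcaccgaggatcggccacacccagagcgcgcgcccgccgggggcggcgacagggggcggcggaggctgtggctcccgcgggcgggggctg
The motif began 227 bases before the start of that window's transcript in Bcl2l11 and 167 bases before it in Bbc3. The Bbc3 window lies inside the span of the gene, which begins at chr7:16308398. Which of the 9 transcripts of Bbc3 use its start is not given here. The E-box CACGTG was present in windows of Bax and Bbc3 (7.15% of all windows) and the GC box GGGCGG in windows of 7 members (35.7%). The AP-1 consensus TGACTCA (5.20%), the NF-kB site known from the immunoglobulin kappa enhancer (0.155%) and the STAT motif TTCNNNGAA (8.30%) were present in 0 of the 14. A match is a description of letters and not a bound site, and a motif missing from these windows may lie elsewhere. Transcripts of Foxo1 and Foxo3, which bind the FOXO core, were not called, with log2 differences of -0.07 ± 0.22 and -0.13 ± 0.15 (SE, 3 libraries a group). Without young replicate 1 that of Foxo1 was 0.19 and that of Foxo3 was -0.05. Transcript levels do not measure the activity of these factors, and a part of FOXO factors in the difference of Bcl2l11 or Bbc3 was not tested.

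Genes of the same pathway from 9 lists added 74 tested genes to the 10 members. By edgeR's quasi-likelihood test 0 of these 74 passed an adjusted p of 0.05, while 14 had an unadjusted p under 0.05 (10.6% of all genes did), and DESeq2 called 6 (4.77% of all genes). These 6 were Bcl2l2, Il2rb, Il2ra, Stat3 and Ddit3, higher in old, and Pim2, lower. Counts of calls and median log2 differences in the lists described next are edgeR's with all libraries. Their median log2 difference was 0.02. Without young replicate 1, edgeR called 8 of them higher and 2 lower, in a fit that called 5.86% of all genes higher and 2.98% lower.

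Bcl2l2, the pro-survival protein Bcl-w, had 10.1, 10.04 and 11.3 CPM in old and 5.15, 5.43 and 5.603 CPM in young libraries. The groups did not overlap, and the log2 difference was 0.96 ± 0.21 (SE) with an adjusted p = 0.0976 by edgeR (quasi-likelihood, Benjamini-Hochberg), and 0.92 with an adjusted p = 0.0351 without young replicate 1. DESeq2 called it with all libraries, at a log2 difference of 0.95 and an adjusted p = 0.00077. The BH3-only gene Bik had 1.78 ± 0.51 CPM in old and 0.885 ± 0.19 CPM in young libraries, and Bcl2l15 had 2.98 ± 1.30 CPM in old and 1.51 ± 0.40 CPM in young libraries (SD, 3 libraries a group), neither called. Bad, a BH3-only protein held in check by phosphorylation, stood at 5.68 ± 1.23 CPM in old and 6.66 ± 1.38 CPM in young libraries, for a log2 difference of -0.23 that was -0.05 without young replicate 1. Bnip3l, a mitophagy receptor, had 76.1 ± 12.3 CPM in old and 114 ± 43.8 CPM in young libraries, of which young replicate 1 held the highest value of 164 CPM. The log2 difference was -0.58 with all libraries and -0.22 without that one. Bnip1 had a log2 difference of -0.25 ± 0.24 (SE), and of -0.47 without young replicate 1. Anti-apoptotic genes, 8 of them tested, had 0 calls by edgeR (DESeq2 called 1, Bcl2l2) and a median of 0.25. The near-identical copies Bcl2a1a to Bcl2a1d are among these 8. Without young replicate 1, Bcl2, Bcl2l2 and Bcl2a1a stood at 0.34, 0.92 and 0.40. All the others were then below 0, with Bcl2l1 at -0.23, Mcl1 at -0.17, Bcl2a1b at -0.14, Bcl2a1c at -0.09 and Bcl2a1d at -0.04. The median of 0.25 thus depended on that library. The 6 tested BH3-only genes had 1 lower call, Bcl2l11, and a median of -0.11. The 2 tested effector genes and the 7 other family and BNIP genes had 0 calls, with medians of -0.03 and -0.12.

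Downstream of the mitochondria, 11 genes of the apoptosome and of mitochondrial release had 0 calls and a median of -0.16. Without young replicate 1 all but Apaf1, at 0.37, and Htra2 were below 0, among them Vdac1, Vdac2 and Vdac3 at -0.37, -0.40 and -0.42. Apaf1, the scaffold of the apoptosome, stood at 44.8 ± 4.57 CPM in old and 37.3 ± 4.79 CPM in young libraries (SD, 3 libraries a group), and Endog and Htra2, a mitochondrial nuclease and protease, had log2 differences of -0.54 ± 0.37 and 0.22 ± 0.16 (SE), and of -0.84 and 0.13 without young replicate 1. The 11 caspase and inhibitor genes had 0 calls and a median of 0.07. Casp6, an executioner caspase, had 29.8, 22.8 and 30.8 CPM in old and 17.0, 17.9 and 19.9 CPM in young libraries, which did not overlap (log2 difference 0.61 ± 0.18, SE). Casp2 and Birc5 (survivin) were lower in every old library, with log2 differences of -0.42 ± 0.17 and -0.69 ± 0.28 (SE), and were not called.

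In the death receptor list, 10 tested genes had 0 calls and a median log2 difference of -0.0030. Cflar, the inhibitor of caspase 8 known as c-FLIP, had 246, 276 and 333 CPM in old and 216, 170.5 and 200.3 CPM in young libraries. Its groups did not overlap, and the log2 difference was 0.54 ± 0.18 (SE) with an adjusted p = 0.308 by edgeR (quasi-likelihood, Benjamini-Hochberg), and 0.62 with an adjusted p = 0.0473 without young replicate 1. Dffb, the nuclease that cuts DNA in apoptosis, and Tnfrsf10b, the receptor of the death ligand Trail, had log2 differences of -0.44 ± 0.17 and -0.42 ± 0.26 (SE). The 10 tested genes of Mcl1 and Bim turnover had 0 calls and a median log2 difference of 0.0037, and Gsk3a, Btrc and Dynll2 had the smallest p, with log2 differences of 0.23, -0.18 and -0.34. That of Dynll2 was -0.63 without young replicate 1.

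Upstream regulators, 19 of them tested, had 0 calls by edgeR and 5 by DESeq2, and a median of 0.13. Without overlap between the groups, 6 were higher and 1 was lower in old, beside 9.9% and 6.54% of all genes tested. The DESeq2 calls were Il2rb, Pim2, Il2ra, Stat3 and Ddit3, with adjusted p = 1.46e-06, 0.00017, 0.00151, 0.00917 and 0.026. Il2rb, the chain of the interleukin-2 receptor that signals, had 659, 719 and 663 CPM in old and 329, 355 and 244 CPM in young libraries, for a log2 difference of 1.14 ± 0.19 (SE) with an adjusted p = 0.0508 by edgeR (quasi-likelihood, Benjamini-Hochberg). Il2ra, its high-affinity chain, had 1161, 1448 and 1597 CPM in old and 435, 823 and 539 CPM in young libraries, for a log2 difference of 1.23 ± 0.27 (SE). Pim2, a kinase that promotes survival, had 190.5, 148 and 166 CPM in old and 316, 284 and 268 CPM in young libraries, for a log2 difference of -0.78 ± 0.16 (SE). All 3 were called without young replicate 1, with adjusted p of 0.00899, 0.0276 and 0.0176 by edgeR (quasi-likelihood, Benjamini-Hochberg). The other calls in that setting were Bcl2l2, Cflar, Tnfsf10, Ddit3, Stat3 and Il7r, all higher, and Dynll1, lower, of which Tnfsf10, Ddit3, Stat3, Il7r and Dynll1 are named only for their calls without this library or by DESeq2. Il7r, the interleukin-7 receptor chain of resting T cells, had 114, 91.8 and 72.6 CPM in old and 684, 41.1 and 27.6 CPM in young libraries. Its log2 difference was -1.43 with all libraries and 1.44 without young replicate 1.

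Likeness of pattern was measured as the root mean square difference of log2 CPM, centred on each gene's mean over the 6 libraries. The 3 genes nearest to Bcl2l11 were Rras2, at 0.083, Lrp5, at 0.102, and Tmem120b, at 0.130. Rras2, a small GTPase of the Ras family, was called lower as well, with a log2 difference of -1.09 and an adjusted p = 0.0262 by edgeR (quasi-likelihood, Benjamini-Hochberg), while Lrp5 and Tmem120b were at -1.14 and -1.14 with adjusted p = 0.0661 and 0.0608. The genes nearest to Bcl2 were Rybp, Prkab2 and Pml, at 0.065, 0.071 and 0.077, none of them called. Since likeness was taken over the same 6 libraries as the comparison, genes that resemble Bcl2l11 had to differ between the groups as well.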

How the data were processed

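Per the file headers, the authors deposited an expected count and an FPKM value for each of 66712 RefSeq transcripts and each of 6 libraries. The submitters' processing notes name Bowtie, RSEM and the mm10 (GRCm38) build, and the versions of the tools, like the strandedness of the libraries, were not given in the sources used here. Reads shared between transcripts are apportioned by RSEM's model. Both values were added up by gene number, of which 19830 matched a RefSeq symbol and 147 did not (0.121% to 0.211% of counts), and summed expected counts were rounded to whole numbers.

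Groups and replicate numbers came from the sample titles. The test was edgeR 4.0.16 (R 4.3.3), quasi-likelihood, TMM factors, no replicate block, on the 10509 genes with a mean of at least 1 FPKM, with Benjamini-Hochberg adjustment over all of them and calls at an adjusted p under 0.05. The SE is the absolute log2 difference over the root of the F statistic, and CPM uses TMM-scaled totals. The code was tested on simulated data. DESeq2 1.42.0 and limma 3.58.1 on log2 of the FPKM plus 1 or 0.1 were alternatives. The members, lists and motifs were chosen with earlier results of these data known. Named genes were all members, up to 3 genes of smallest p in each list, and the genes nearest in pattern. Foxo1, Foxo3, Bcl2a1 copies and other genes called by DESeq2 or without young replicate 1 were added after their values were seen. No 2 libraries were the same within counting error (chi-square per degree of freedom of at least 23.0). Coding lengths and BH3 codons came from GENCODE M21 and promoters from RefSeq. Figures used matplotlib 3.10.9.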

Additional observations from a re-analysis of the deposited data

How the results depend on the processing

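Bcl2l11 kept its direction under all 13 alternatives, with log2 differences between -1.22 and -1.10. It was called with no filter, a mean of at least 5 FPKM, RLE factors, DESeq2 (adjusted p = 3.55e-13), both limma pseudocounts, the replicate block (log2 difference -1.15, adjusted p = 0.0426 by edgeR) and without young replicate 1. The count of members called was 0 to 1 over the fits that leave out a library, and 2 in DESeq2 without young replicate 1, where 1792 genes were called. Of 130 alternative fits of single members, 118 kept direction and side of the threshold, 5 lost the call (Bcl2l11) and 7 changed sign. Most of the 118 are members that were not called to begin with and stayed so, and Bcl2l11 kept its call in 8 of 13. DESeq2 without young replicate 1, where Bax gained a call, is not among the 130. The sign changes were all in fits without a library, which ranged from -0.46 to 0.084 for Bax, -0.14 to 0.40 for Bcl2a1b, -0.23 to 0.22 for Bcl2l1, -0.030 to 0.26 for Bid and -0.20 to 0.18 for Pmaip1. The number of genes called was 203 with no filter, 55 at 5 FPKM and 501 in DESeq2, and 0 to 929 by edgeR without a library (0 without old replicate 2 and without young replicate 2, against 688 and 1296 genes by unadjusted p under 0.05). The log2 ratio of pro-survival to pro-death FPKM, 0.21 higher in old libraries, was 0.56 higher without Bax and Mcl1, and 0.13 to 0.28 without a library. Without Bax and Mcl1 it was 0.90, 0.77 and 1.24 in old and -0.20, 0.54 and 0.88 in young libraries. The groups thus overlapped, and young replicate 1 lay far below the other young libraries. The causes of these shifts were not tested. Same-numbered libraries of the groups had deviations that correlated at 0.231, -0.023 and 0.196, so the numbers were not taken to pair them, and the replicate block, with 119 genes called, changed no member's call. Expected counts of Pmaip1, the lowest member, were 145 to 263 per library, so counting error is largest there.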
